A study of Mus musculus with 7 samples.

Results

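The 10 genes described here encode enzymes of the upper and middle part of glycolysis, 1 enzyme that sets the level of fructose-2,6-bisphosphate, and the enzymes at which fructose enters and glycerol 3-phosphate leaves the pathway: Hk1, Hk2, Pfkl, Pfkp, Pfkfb3, Aldoa, Tpi1, Pgk1, Khk and Gpd1. They were taken by gene symbol from a table of mouse liver microarray values, as every probe set whose platform annotation holds exactly 1 symbol and that symbol is among the 10. The rule found 11 probe sets for 10 genes, out of 27541 probe sets and 19933 genes with a probe set of their own. A probe set is the group of probes on the array that is summarised into 1 value for a transcript.

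The values come from 7 Affymetrix Mouse Gene 1.0 ST arrays, each with liver RNA of a C57BL/6 male aged 4 months that ate normal chow freely and was killed 2 weeks after virus injection, at 5 pm (ZT10, where ZT counts hours from lights on). All mice received AAV-Cre, an adeno-associated virus that carries the Cre recombinase. The knockout group (genotype label HDAC3 knockout, 3 arrays) received AAV-Cre alone. The rescued group (genotype label HDAC3 rescued wild-type, 4 arrays) received AAV-Cre together with AAV-Flag-HDAC3, which puts wild-type HDAC3, a histone deacetylase of nuclear receptor corepressor complexes, back. The labels do not give the promoter of either virus, the Hdac3 allele that Cre acts on, or the liver cells reached, and the groups differ by the second virus as well as by HDAC3. The comparison asks which transcripts differ between livers labelled HDAC3 knockout and livers labelled rescued.

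Glycolysis splits glucose into pyruvate. Hexokinases trap glucose as glucose 6-phosphate, phosphofructokinase makes the committed step, and aldolase and the enzymes after it pass the carbon on to pyruvate. In hepatocytes the pace of phosphofructokinase is set largely by fructose-2,6-bisphosphate, which bifunctional enzymes of the Pfkfb family make and remove, and which also restrains gluconeogenesis. Hk1 and Hk2 are typical of other tissues rather than of adult hepatocytes, and fructose reaches the pathway through ketohexokinase.

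Values below are log2 intensities, differences are knockout minus rescued, and a gene is called where limma's moderated test gives a Benjamini-Hochberg adjusted p under 0.05 over all 19933 genes. Hdac3 itself was lower in the knockout livers, at 8.75 to 9.07 against 9.23 to 9.55 in the rescued livers, a difference of -0.48 (SE 0.10, adjusted p = 0.0124 in limma's test). The probe set may read the vector's transcript as well as the mouse gene's, so it checks the labels in part. All 3 knockout arrays still read above the 95th percentile of the background genes named below (6.21), so the values show a lower Hdac3 signal and not its absence. The arrays' median intensities ran from 105.0 to 110.9 in the knockout and from 96.3 to 102.3 in the rescued group, so they did not overlap. Over all genes the median difference was 0.09 as deposited and -0.03 after the arrays were centred on their medians, a shift of more than 0.1. Changes of that size depend on the scaling. Where nothing else is said, values are as deposited. All 10 hepatocyte marker genes measured, Alb and Apoa1 among them, were above the 95th percentile of 1194 chemosensory receptor genes, which liver is not known to use and which stand here for background. The sums of their intensities overlapped, at 87799 to 91342 in knockout and 87411 to 91266 in rescued livers.

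Of the 10 genes, 4 were called and 6 were not, with Gpd1 and Pgk1 higher and Pfkfb3 and Pfkl lower in the knockout livers. The share of all 19933 genes called was 14.4%, with 9.54% higher and 4.85% lower. That split depends on the scaling: 66.3% of the calls over all genes were higher as deposited, and 42.3%, 19.3% and 41.6% under quantile normalization, median centring and cyclic loess. The median difference of the 10 genes was 0.04, beside 0.09 over all genes. For the 10 genes it was -0.05, -0.07 and -0.05 under the same 3 rescalings in turn, so its sign depended on the scaling. The groups did not overlap for the same 4 genes, while 29.6% of all genes showed no overlap. Gpd1 and Pfkfb3 stayed called in all 18 alternative settings run for each, while Pfkl and Pgk1 stayed called in 11 of 18. Not all of these settings are separate checks. Changing the Hk1 probe set, or taking the mean of probe sets, cannot move the differences of these 4 genes, each with 1 probe set. The replicate block gave the same differences as leaving out rescued replicate 4. The count of 4 fell to 2 when knockout replicate 1 or 2, or rescued replicate 2, 3 or 4, was left out.

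**Figure D1:**
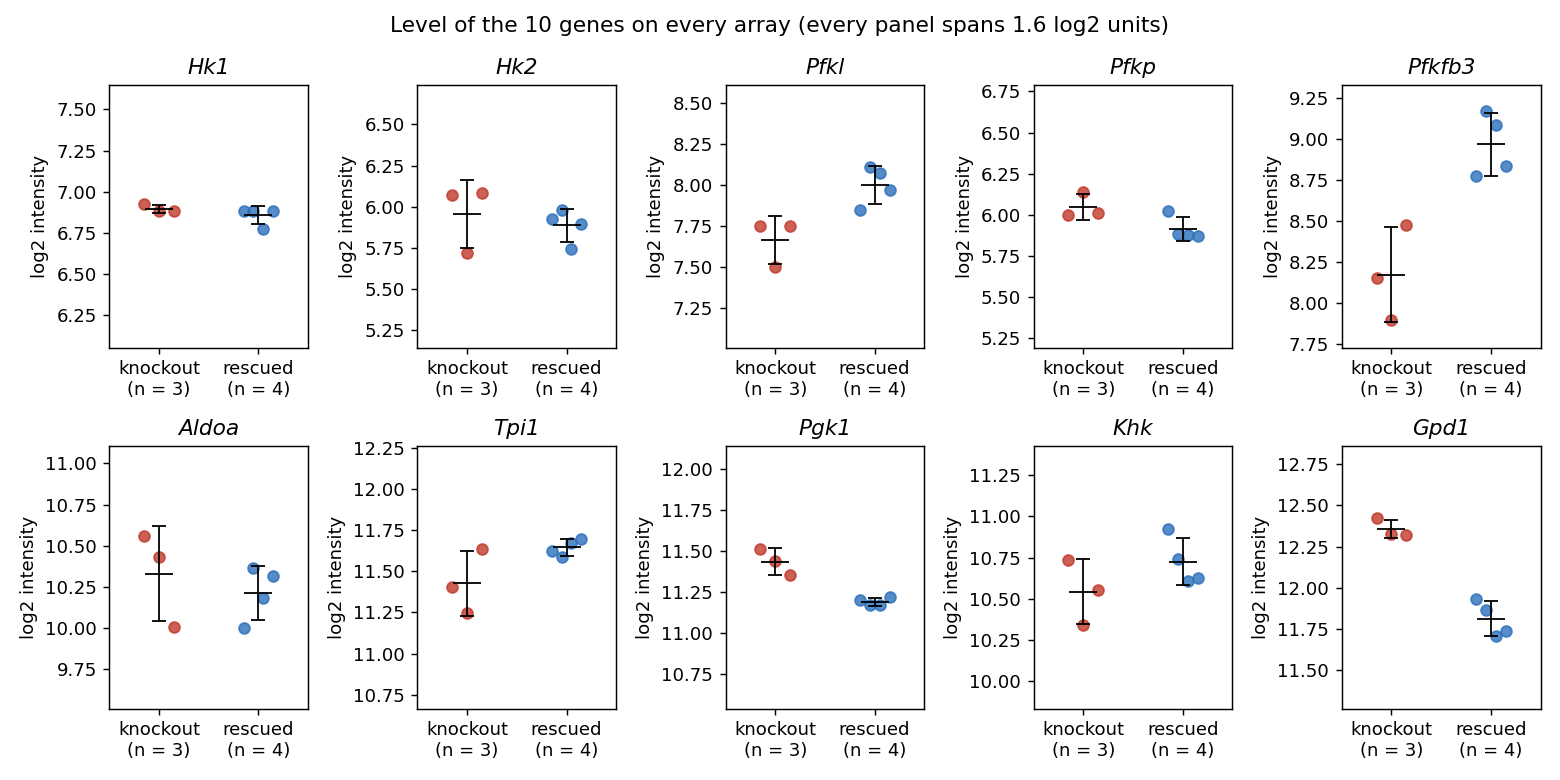
Log2 intensity (vertical axis) of the 10 genes on every array, by group; each point is 1 array, the long tick is the group mean and the bars are the SD (knockout n = 3, rescued n = 4). Hk1 is shown by its RefSeq probe set. Knockout points lie wholly below rescued points for Pfkl and Pfkfb3 and wholly above them for Pgk1 and Gpd1, and the groups overlap for the other 6 genes.

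To show the DNA in front of the genes that were called, the 250 bases before each start site that RefSeq lists (build GRCm38.p6) are printed 5′ to 3′ for Pfkfb3, Pfkl and Pgk1. Start sites were found in the RefSeq table for 9 of the 10 genes, 13 sites in all; Gpd1 was not matched. Capitals mark ACGTG or its reverse complement CACGT, the core of the sequence that hypoxia-inducible factors bind, CACGTG, the E-box read by clock and carbohydrate response factors, which contains that core, and AGGTCA or TGACCT, the motif of nuclear receptors. Pfkfb3 has 2 listed sites, and the array value does not tell which was used. The windows are on the minus strand at chr2:11553930-11554179 (Pfkfb3, upstream site), chr2:11502091-11502340 (Pfkfb3, downstream site) and chr10:78009808-78010057 (Pfkl), and on the plus strand at chrX:106186850-106187099 (Pgk1).
Pfkfb3 upstream site: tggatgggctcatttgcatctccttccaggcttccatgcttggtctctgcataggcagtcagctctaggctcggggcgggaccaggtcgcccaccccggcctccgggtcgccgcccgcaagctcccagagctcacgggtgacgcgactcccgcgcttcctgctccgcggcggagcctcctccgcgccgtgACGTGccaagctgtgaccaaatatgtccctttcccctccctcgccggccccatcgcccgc
Pfkfb3 downstream site: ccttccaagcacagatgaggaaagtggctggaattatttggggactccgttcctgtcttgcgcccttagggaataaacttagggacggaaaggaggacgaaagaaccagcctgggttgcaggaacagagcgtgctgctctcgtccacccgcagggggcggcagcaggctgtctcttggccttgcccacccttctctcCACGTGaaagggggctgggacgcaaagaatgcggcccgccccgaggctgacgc
Pfkl: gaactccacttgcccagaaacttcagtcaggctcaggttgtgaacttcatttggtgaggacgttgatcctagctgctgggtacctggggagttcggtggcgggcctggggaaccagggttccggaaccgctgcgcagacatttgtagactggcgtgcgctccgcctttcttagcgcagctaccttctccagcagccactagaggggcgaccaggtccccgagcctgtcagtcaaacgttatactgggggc
Pgk1: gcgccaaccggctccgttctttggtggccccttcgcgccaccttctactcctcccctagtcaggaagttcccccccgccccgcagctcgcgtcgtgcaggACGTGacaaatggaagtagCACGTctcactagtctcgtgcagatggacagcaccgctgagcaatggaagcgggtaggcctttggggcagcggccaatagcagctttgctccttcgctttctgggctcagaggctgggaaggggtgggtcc
The upstream Pfkfb3 window holds 1 ACGTG core, beginning 60 bases before the start. The downstream window holds 1 CACGTG, beginning 53 bases before the start. The Pgk1 window holds 2 cores, beginning 150 and 131 bases before the start, and the Pfkl window holds none of the 3 motifs. Searched on both strands, ACGTG occurred in 7 of the 13 windows, in front of 5 of 9 genes (Hk2, Pfkfb3, Aldoa, Pgk1 and Khk). It occurred in 16.6% of 32817 windows of the same length before all listed starts. Of the 7 windows, 2 are overlapping windows of Aldoa that hold the same core. CACGTG occurred in 2 windows, those of the downstream Pfkfb3 site and of Khk, and in 6.02% of all windows. AGGTCA occurred in 2 overlapping windows, both of Aldoa, and in 14.0% of all windows. Genes with the ACGTG core included called and uncalled ones, and called ones with opposite signs. A match describes letters and is not evidence that a factor binds.

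Hexokinases phosphorylate glucose. Hk2, the isoform of muscle and fat that is dim in healthy liver, read 6.07, 5.72 and 6.08 in the knockout livers and 5.93, 5.98, 5.74 and 5.89 in the rescued livers. The groups overlapped, and both lowest values, 1 from each group, were near 5.7. The difference was 0.07 with a 95% interval of -0.15 to 0.29 (adjusted p = 0.614 in limma's test), and under quantile normalization, median centring and cyclic loess in turn it was -0.08, -0.04 and -0.08. The mean level lay at percentile 91.5 of the receptor genes, within the range of that background.

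Hk1, the hexokinase of brain and red cells, had 2 probe sets with Hk1 as the only symbol, and they read differently. The probe set that carries RefSeq mRNA accessions read 6.92, 6.88 and 6.88 in the knockout livers and 6.88, 6.88, 6.77 and 6.88 in the rescued livers. A value identical to the last deposited digit stood on 5 of the 7 arrays. With this probe set standing for Hk1, 60 of the 19933 genes (0.301%) had such an exact repeat on 5 or more arrays. The other probe set read 11.75 to 11.77 in knockout and 11.69 to 11.78 in rescued livers. Its annotation holds 1 accession, J05277. J05277 is also among those of the RefSeq Hk1 probe set, and is listed for the 15 probe sets that name Hk1 together with other genes. All 15 of those name the ribosomal protein gene Rpl17. Because a gene stood for itself by its brightest probe set, that probe set was Hk1 in the fit over all genes, with a difference of 0.01 (adjusted p = 0.879 in limma's test). With the RefSeq probe set in its place the difference was 0.04, with a 95% interval of -0.10 to 0.18 (adjusted p = 0.657). Under quantile normalization, median centring and cyclic loess in turn it was -0.05, -0.07 and -0.06, so the sign depended on the scaling. Within each array, the log2 ratio of Hk2 to Hk1 differed by 0.06 between groups as designed and by 0.03 with the RefSeq probe set (exact permutation test, two-sided, adjusted p = 0.600 and 0.800). With Hk2 within the background range, neither value measures the balance of the 2 isoenzymes.

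Phosphofructokinase is built from liver, muscle and platelet subunits. Pfkl, the liver subunit, read 7.75, 7.50 and 7.75 in the knockout livers and 7.85, 8.11, 8.07 and 7.97 in the rescued livers. The groups did not overlap, with the highest knockout and lowest rescued value 0.10 apart. Pfkl was 1.26-fold lower, at 7.67 ± 0.14 (SD, n = 3) against 8.0 ± 0.12 (SD, n = 4), a difference of -0.33 (SE 0.09, adjusted p = 0.0345 in limma's test). The call was close to the threshold. Quantile normalization ended it (adjusted p = 0.0506), and so did leaving out knockout replicate 1 or 2, or rescued replicate 2, 3 or 4. The difference was -0.39 to -0.25 over the 7 arrays left out in turn.

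Pfkp, the platelet subunit, read 6.00, 6.14 and 6.01 in the knockout livers and 6.02, 5.88, 5.88 and 5.87 in the rescued livers. The overlap came from rescued replicate 1, which stood above the other 3 rescued arrays. The difference was 0.13 (95% interval -0.02 to 0.29, adjusted p = 0.197 in limma's test). Under quantile normalization, median centring and cyclic loess in turn it was -0.01, 0.02 and -0.02. Its mean level was at percentile 92.0 of the receptor genes, again within the background range. The muscle subunit gene Pfkm was 1.26-fold lower at 7.73 ± 0.08 against 8.06 ± 0.07 (adjusted p = 0.0170 in limma's test), a call that ended when rescued replicate 3 was left out. Pfkl and Pfkm thus fell, and Pfkp did not pass. The log2 ratio of Pfkp to Pfkl within an array differed by 0.47 between groups, of which 0.33 is the difference of Pfkl and 0.13 that of Pfkp. Since Pfkp was within the background range, the ratio mostly restates the Pfkl difference and does not measure the balance of subunits. The two-sided exact permutation test gave p = 0.0571 (adjusted p = 0.0857 over 3 ratios), so this ratio was not called. Before adjustment 0.0286 is the smallest p that 35 splits allow. After adjustment over 3 ratios, 1 ratio alone at that smallest p would still not fall under 0.05. The test thus had little room to call any ratio.

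Pfkfb3 encodes the inducible bifunctional enzyme of this family, with high kinase activity, which makes fructose-2,6-bisphosphate. It read 8.15, 7.90 and 8.47 in the knockout livers and 8.77, 9.17, 9.09 and 8.84 in the rescued livers. All knockout arrays were lower than all rescued arrays, and the spread within each group was wider than for most of the other 9 genes. The level fell 1.73-fold, to 8.17 ± 0.29 (SD, n = 3) from 8.97 ± 0.19 (SD, n = 4), a difference of -0.79 (SE 0.13, 95% interval -1.09 to -0.50, adjusted p = 0.00640 in limma's test). The difference ranged from -0.94 to -0.65 over all alternatives, with adjusted p from 0.00304 to 0.0395. Among the other 5 measured genes that act on this metabolite or its opposing enzyme, only Pfkfb2 was called, 1.42-fold lower at 8.32 ± 0.19 against 8.83 ± 0.19 (adjusted p = 0.0205 in limma's test). Leaving out knockout replicate 1, or rescued replicate 2 or 3, ended that call. Pfkfb2 encodes a heart-type member of the family. Pfkfb4 and Tigar, a phosphatase of the same metabolite, differed by 0.03 and 0.002. Fbp1, the fructose bisphosphatase of gluconeogenesis, was at 13.06 against 13.17 (adjusted p = 0.216), and its groups did not overlap. The Fbp1 difference was -0.11 as deposited. Under quantile normalization, median centring and cyclic loess in turn it was -0.19, -0.23 and -0.19. Over the 4 scalings the adjusted p of Fbp1 in limma's test ran from 0.0477 to 0.216, so whether it was called depended on the scaling. Pfkfb1, the gene of the classic liver isoform, was not analysed here.

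Aldolase splits fructose bisphosphate into triose phosphates. Aldoa, the widely expressed form, read 10.56, 10.43 and 10.003 in the knockout livers and 9.997, 10.36, 10.18 and 10.31 in the rescued livers. The groups overlapped fully at the low end, where knockout replicate 3 and rescued replicate 1 were alike. The difference was 0.12 (95% interval -0.17 to 0.40, adjusted p = 0.521 in limma's test) and rose to 0.28 when knockout replicate 3 was left out, still uncalled (adjusted p = 0.106). Aldoc, the brain-type form, was 2.21-fold lower in the knockout livers, at 7.49 ± 0.17 against 8.64 ± 0.50 (adjusted p = 0.00970 in limma's test). It was the largest difference among the 15 other glycolysis genes measured, and leaving out knockout replicate 1 ended its call (adjusted p = 0.0507).

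Tpi1 interconverts the 2 triose phosphates. It read 11.40, 11.24 and 11.64 in the knockout livers and 11.62, 11.59, 11.67 and 11.70 in the rescued livers. Knockout replicates 1 and 2 lay below every rescued array, and knockout replicate 3 lay within the rescued range. The difference was -0.22 (95% interval -0.42 to -0.02), and it did not pass after adjustment (adjusted p = 0.112 in limma's test). It passed without knockout replicate 3, at -0.32 (adjusted p = 0.0318), and after median centring, at -0.33 (adjusted p = 0.0405).

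Pgk1, the kinase of the first ATP-yielding step, read 11.51, 11.44 and 11.35 in the knockout livers and 11.20, 11.17, 11.17 and 11.22 in the rescued livers. Every knockout value was above every rescued value, and the rescued arrays were tightly grouped. The level rose 1.19-fold, to 11.44 ± 0.08 (SD, n = 3) from 11.19 ± 0.02 (SD, n = 4), a difference of 0.25 (SE 0.07, adjusted p = 0.0361 in limma's test). Median centring ended the call, at 0.13 (adjusted p = 0.195), as did leaving out knockout replicate 1 or 2, or rescued replicate 2, 3 or 4. The difference was 0.21 to 0.29 over the 7 arrays left out in turn. Tpi1 and Pgk1 act close together in the pathway, and their differences had opposite signs in every scaling.

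Khk, the ketohexokinase that phosphorylates fructose, read 10.74, 10.34 and 10.56 in the knockout livers and 10.92, 10.74, 10.61 and 10.63 in the rescued livers. The groups overlapped, since knockout replicate 1 was above rescued replicates 3 and 4. The difference was -0.18 (95% interval -0.41 to 0.05, adjusted p = 0.229 in limma's test), and -0.30 after median centring (adjusted p = 0.0555). Of 6 measured genes of the fructose and glycerol phosphate list, 1 was called higher and 2 lower. Tkfc, the triokinase that acts after Khk and aldolase, was 1.22-fold lower, with a difference of -0.29 (SE 0.08, adjusted p = 0.0440 in limma's test). Leaving out any of the 7 arrays ended its call. The fructose transporter gene Slc2a5 was 1.42-fold lower at 6.53 ± 0.23 against 7.04 ± 0.20 (adjusted p = 0.0271). Leaving out knockout replicate 1 or 2, or rescued replicate 3 or 4, ended this call.

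Gpd1 is the cytosolic glycerol 3-phosphate dehydrogenase, which draws dihydroxyacetone phosphate out of glycolysis, supplies the glycerol backbone of triglycerides and works with mitochondrial Gpd2 in the shuttle that moves reducing equivalents. It read 12.42, 12.33 and 12.32 in the knockout livers and 11.93, 11.86, 11.71 and 11.74 in the rescued livers. Every knockout array was above every rescued array, with a gap of 0.39 between the nearest values. The level rose 1.46-fold, to 12.36 ± 0.06 (SD, n = 3) from 11.81 ± 0.11 (SD, n = 4), a difference of 0.55 (SE 0.08, 95% interval 0.38 to 0.71, adjusted p = 0.00212 in limma's test). Over the alternatives the difference ranged from 0.43 to 0.59, with adjusted p from 0.000581 to 0.0162. Its paralog Gpd1l was 1.20-fold higher at 8.75 ± 0.03 against 8.48 ± 0.05 (adjusted p = 0.0253 in limma's test). Median centring ended this call, at 0.15 (adjusted p = 0.168), and so did leaving out knockout replicate 1 or 2, or rescued replicate 2 or 3. Gpd2 was at 9.35 ± 0.21 against 9.15 ± 0.08, a difference of 0.21 (adjusted p = 0.154). The log2 ratio of Gpd1 to Gpd2 within an array was higher in all 3 knockout arrays, with a difference of 0.34. The two-sided exact permutation test gave p = 0.0571 (adjusted p = 0.0857), which does not show that the 2 genes changed unequally. As for the ratio of Pfkp to Pfkl, the adjusted test had little room to call it.

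**Figure D2:**
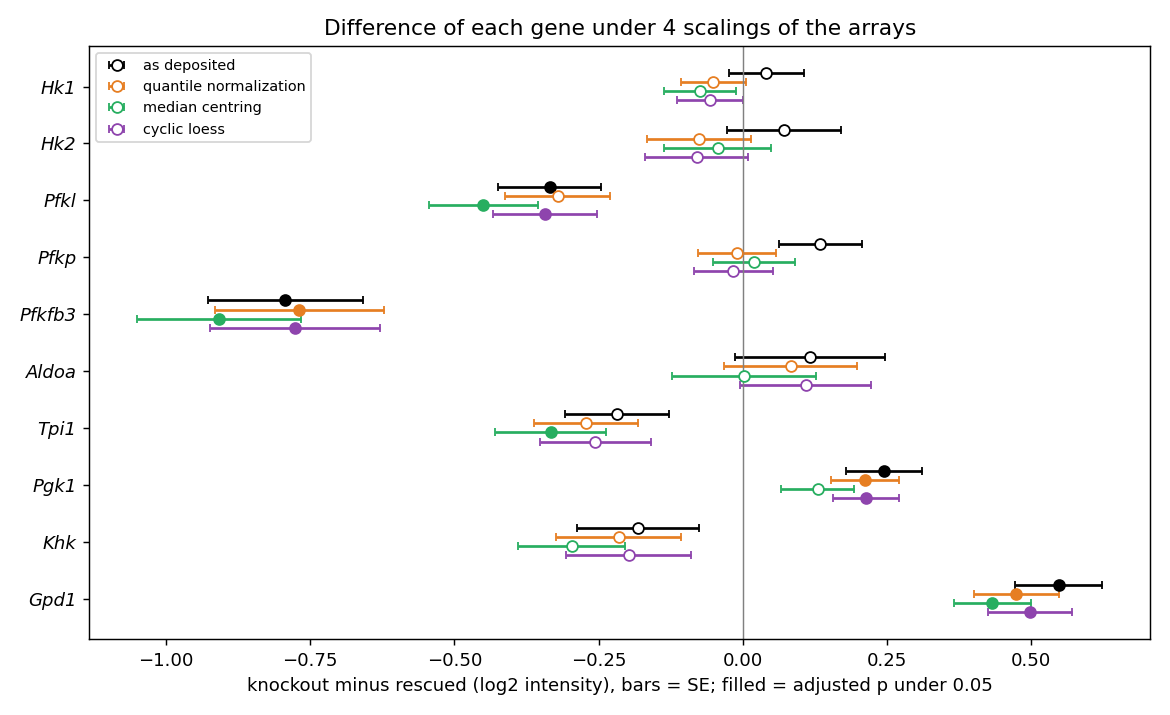
Difference of each of the 10 genes, knockout minus rescued in log2 intensity (horizontal axis), with SE bars, as deposited and after 3 rescalings of the arrays; filled points had an adjusted p under 0.05 in limma's test (3 knockout, 4 rescued arrays). Hk1 is its RefSeq probe set. Pfkfb3 and Gpd1 are filled in all 4 scalings, Pfkl is open after quantile normalization and Pgk1 after median centring, and Hk1, Hk2 and Pfkp change sign.

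Beyond the 10 genes, lists of the neighbouring steps held 65 genes, of which 57 had a probe set of their own. Of these 57, 5 were called higher, 9 lower and 43 not called, beside 9.54% higher and 4.85% lower over all genes. The median difference of the 57 was 0.07. The count of 14 was 6 when knockout replicate 1 was left out and 7 when rescued replicate 2 or 3 was. All 9 lower calls and 1 of the 5 higher calls were made with the same sign in every scaling. Calls over all genes moved the same way. Under quantile normalization, median centring and cyclic loess in turn, higher calls fell from 1901 to 842, 517 and 816. Lower calls rose from 966 to 1148, 2167 and 1146. The pattern is thus not particular to these lists. Among 15 other glycolysis genes 1 was higher and 2 lower (Pfkm and Aldoc, above). The higher one was Eno2, the neuron-type enolase, at 6.35 ± 0.04 against 6.00 ± 0.18 (adjusted p = 0.0357 in limma's test), a level at percentile 94.6 of the receptor genes. The other 3 scalings ended its call, at 0.21 to 0.24 (adjusted p from 0.0902 to 0.141). With an array left out it stayed called only without rescued replicate 1. The liver pyruvate kinase gene Pklr was at 11.31 ± 0.22 against 11.58 ± 0.33 (adjusted p = 0.254). The lactate dehydrogenase gene Ldha was at 12.58 ± 0.05 against 12.50 ± 0.04 (adjusted p = 0.360). Gckr, the glucokinase regulator gene, was at 9.98 ± 0.12 against 10.16 ± 0.11, a difference of -0.18 (adjusted p = 0.145 in limma's test). Under quantile normalization, median centring and cyclic loess in turn the Gckr difference was -0.21, -0.29 and -0.18. Its lowest adjusted p over the scalings was 0.0362.

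Of 6 sugar and lactate transporter genes, 2 were called higher and 1 lower. Slc2a2, the main glucose transporter of hepatocytes, was 1.27-fold lower at 11.37 ± 0.15 against 11.71 ± 0.09 (adjusted p = 0.0283 in limma's test). Leaving out replicate 2 or 3 of either group ended its call. Slc2a1, the widespread glucose transporter, had 9.30 ± 0.07 against 8.95 ± 0.06, 1.28-fold higher (adjusted p = 0.0116). It was called with any array left out, but not after median centring, at 0.24 (adjusted p = 0.0521). Slc16a7, a monocarboxylate transporter, had 11.34 ± 0.06 against 10.93 ± 0.08, 1.33-fold higher (adjusted p = 0.00730). Its call held in every scaling and with each array left out.

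Several of the 10 genes are known targets of hypoxia-inducible factors, and Khk and Gpd1 respond to carbohydrate. A list of 15 held hypoxia-inducible genes outside glycolysis together with genes of the factors themselves. Of these, Vegfa was called higher, at 10.44 ± 0.07 against 10.14 ± 0.04 (adjusted p = 0.0186 in limma's test). Egln3, an oxygen-sensing prolyl hydroxylase, was called lower, at 8.07 ± 0.24 against 8.67 ± 0.25 (adjusted p = 0.0217). The Vegfa call ended after median centring, at 0.19 (adjusted p = 0.0859), and without knockout replicate 1 or rescued replicate 2. The Egln3 call ended without knockout replicate 1 or 3, or rescued replicate 2. The other 13 genes were not called. Of 12 carbohydrate response genes 3 were lower and none higher: Rgs16, 1.91-fold (adjusted p = 0.00627), G6pc, the glucose 6-phosphatase subunit, 2.16-fold (adjusted p = 0.00691), and Tkfc. The other 9 were not called, with 5 differences above 0 and 4 below. Fasn, the fatty acid synthase gene, was at 11.99 ± 0.21 against 11.50 ± 0.32 (adjusted p = 0.0576), and the lipogenic gene Thrsp at 11.29 ± 0.13 against 10.88 ± 0.39 (adjusted p = 0.113). Without rescued replicate 1 both were called higher, at 0.64 (adjusted p = 0.00929) and 0.60 (adjusted p = 0.00585). Neither Fasn nor Thrsp was called with any other array left out, or under quantile normalization, median centring or cyclic loess. The absence of higher calls in this list thus did not hold without that 1 array. The lower calls of Rgs16 and G6pc held in every scaling and with each array left out, unlike that of Tkfc. Mlxipl, which encodes the carbohydrate response factor ChREBP, was at 11.35 ± 0.13 against 11.16 ± 0.08 (adjusted p = 0.126).

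**Figure D3:**
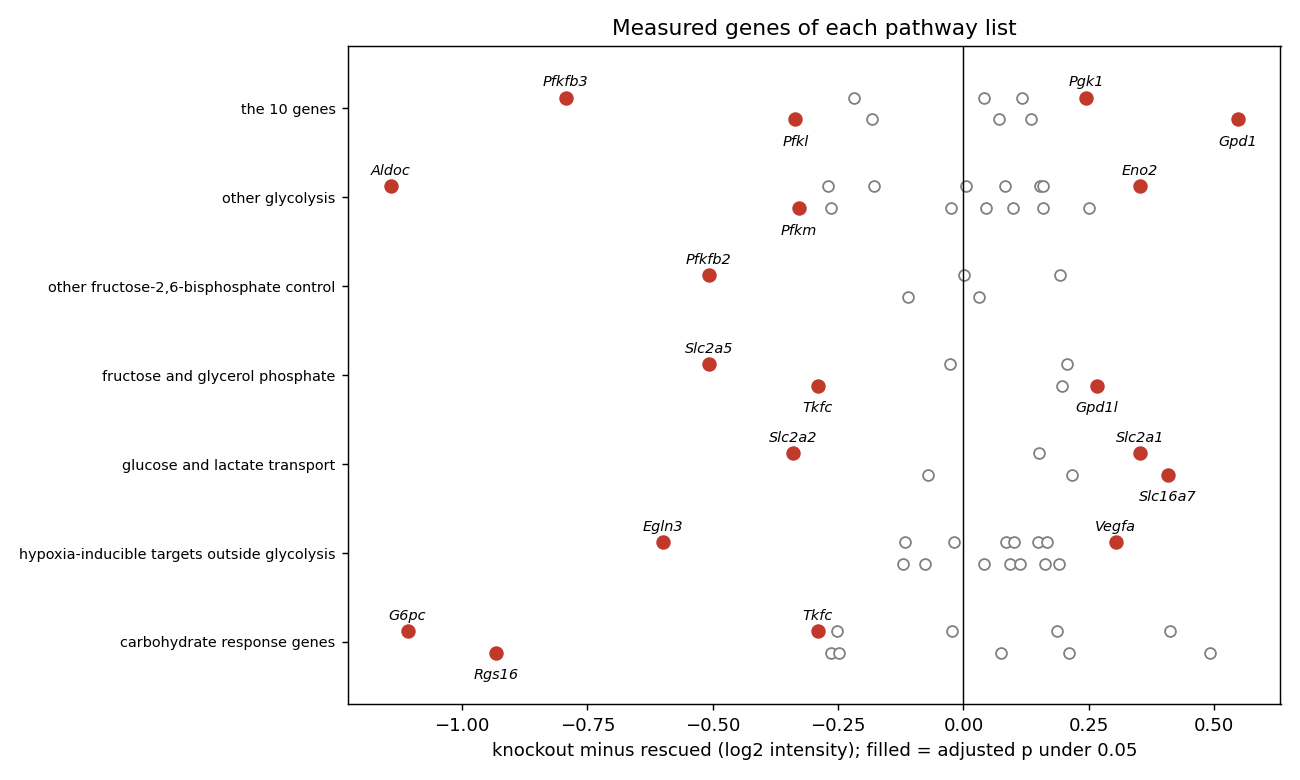
Difference knockout minus rescued in log2 intensity (horizontal axis) for the 10 genes and for every measured gene of the 6 pathway lists (rows), 3 knockout against 4 rescued arrays; filled, named points had an adjusted p under 0.05 in limma's test. Calls lie on both sides of 0, with 9 of the 14 called genes outside the 10 on the lower side; Tkfc is in 2 lists.

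Cells other than hepatocytes may also express any of the 10 genes, called ones included. In bulk liver fewer cells of a type and less RNA per cell cannot be told apart. Of 63 marker genes measured over 7 cell types, 4 were called. The summed intensity of 12 macrophage markers was 4835 to 5204 in knockout and 3761 to 5553 in rescued livers, with none called. Of 10 endothelial markers, Clec4g and Fcgr2b were lower by 1.23-fold and 1.16-fold, and the other 8 were not called, with 5 differences above 0 and 3 below. The median difference of the 10 was 0.02, and their sums, in which Clec4g is the brightest marker, were 5553 to 6408 against 6364 to 6480. Leaving out any array but knockout replicate 2 ended the Clec4g call, as did cyclic loess (adjusted p = 0.0562), and leaving out any of the 7 ended that of Fcgr2b. Of 10 stellate cell markers Lrat was 1.24-fold higher, and the sums overlapped (4666 to 5101 against 4498 to 5056). The Lrat call ended after median centring, at 0.20 (adjusted p = 0.141), and with any array but knockout replicate 3 left out. The 3 erythroid markers measured summed to 459 to 603 in knockout and 877 to 1025 in rescued livers without overlap. Alas2, the gene of an erythroid enzyme of haem synthesis, was 2.22-fold lower (adjusted p = 0.000190 in limma's test). The lower sum came from Alas2 alone: Slc4a1, the red cell anion exchanger, was at 7.30 ± 0.28 against 6.92 ± 0.09 (adjusted p = 0.0535), and Epb42, a red cell membrane protein gene, at 5.67 ± 0.26 against 5.47 ± 0.05 (adjusted p = 0.201). Sums of 11 lymphocyte and neutrophil markers (651 to 727 against 596 to 630) and of 7 cholangiocyte markers (654 to 739 against 572 to 630) were higher in the knockout livers with no gene called, and 7 and 4 of these markers were at or below the 95th percentile of the receptor genes. The part of these cells in the values of the 10 genes was not tested.

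The genes whose profile over the 7 arrays was most like that of Pfkfb3, by root mean square distance of log2 values centred on each gene's mean, were C8a (0.073), Zmym5 (0.13) and Slc12a2 (0.13). For Gpd1 they were Zfp775 (0.041), Trav13-5 (0.050) and Drc1 (0.055). Pfkfb3 itself spanned 1.27 log2 units over the arrays and Gpd1 0.71. The 6 genes were picked for closeness over these same arrays, so their small distances are fixed by the choice.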

How the data were processed

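Livers went into liquid nitrogen, and Trizol was used for total RNA, per the labels' protocols. The authors' deposited table gives 1 linear intensity per probe set and array, from 5.41 to 17351, and RMA and Partek are named in the submitters' processing notes, without versions or roles. The scaling applied last, and the genome build, are not given in the sources used here. Every value was present and above 0. Values were log2 transformed and dim genes were kept. Symbols came from the platform annotation. Of 27541 probe sets, 21631 had 1 symbol, 1317 several and 4593 none. A gene was its brightest probe set with exactly 1 symbol.

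Groups were taken from the genotype labels. The titles of the rescued arrays say WT. The labels call the arrays biological replicates. The 2 groups were fitted in limma 3.58.1 under R 4.3.3 (lmFit and eBayes without covariates, two-sided), and p-values were Benjamini-Hochberg adjusted over 19933 genes. The fit was also run on simulated data. Those values were drawn gene by gene without a shift shared by an array, so the run does not bear on the scaling. Ratios of 2 isoenzyme genes within an array were compared by an exact permutation test over 35 splits. Of 6 ratios planned, 3 were run, and the others are not reported here. The 10 genes, the lists and the tests were chosen with earlier results of these data known. Named are all 10 genes, a few central liver genes, up to 6 called genes of each pathway list and up to 4 called markers a list with the largest differences, and 3 genes most like Pfkfb3 and Gpd1 in profile, leaving out predicted or clone names; Ldha, Tigar and Pfkfb4 were named after their values were seen, as were Mlxipl, Alb, Apoa1, Fasn, Thrsp, Slc4a1 and Epb42. Alternatives were quantile, median and cyclic loess scaling, 2 filters on dim genes, the mean of probe sets, all probe sets tested, a replicate block, array weights, a robust spread with trend, leaving out each array, and thresholds of 0.01 and 0.1. The Hk1 probe set with RefSeq accessions, a further alternative, was chosen after seeing the data. The number of arrays limits the precision. Promoter sequences are RefSeq's, of build GRCm38.p6. Figures were drawn with matplotlib 3.10.9.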

Additional observations from a re-analysis of the deposited data

Results flagged for a closer look

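In the rescued group of 4 arrays, 1 array stood apart from the other 3 by Dixon's ratio for 4 of the 67 genes examined, and chance flags about 1 group in 20. For Pfkp, rescued replicate 1 read 6.02, next to 5.88 and down to 5.87. For Pfkfb4, rescued replicate 3 read 6.09 below the other 3 arrays, which share exactly the same value, 6.17; with tied values the ratio is at its highest whatever the size of the gap, so it says nothing here. Rescued replicate 3 also read highest for Slc16a7 (11.06, next 10.91) and for the histone demethylase gene Kdm3a (7.75, next 7.58). The knockout group of 3 was not examined in this way.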

How the results depend on the processing

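The count of called genes among the 10 was 4 as deposited, 2 with the replicate block, 2 at a threshold of 0.01 and 2 to 5 with an array left out. Among the pathway lists it was 14 as deposited, 4 at a threshold of 0.01 and 6 to 17 with an array left out, and over all genes 2867, 509 at 0.01, 5528 at 0.1 and 897 to 3263 with an array left out (897 without knockout replicate 1, 1721 without knockout replicate 2, and 1200, 948 and 1331 without rescued replicate 2, 3 and 4). With the replicate block the calls of Pfkl (-0.34, adjusted p = 0.0634 in limma's test) and Pgk1 (0.25, adjusted p = 0.0697) were lost, and no other call among the 10 changed. Since rescued replicate 4 has no partner, the block leaves it without weight. Deviations of same-numbered arrays correlated at 0.15, 0.003 and 0.005, and knockout replicate 2 correlated best with rescued replicate 3 (0.15), so the numbers are not taken as pairs. Signs turned only for uncalled values: Hk1 by its brightest probe set under quantile normalization, median centring and cyclic loess in turn was -0.031, -0.10 and -0.027, with the replicate block -0.0012, and with an array left out -0.0012 to 0.028. In the same 3 scalings Hk2 was -0.076, -0.044 and -0.080 and Pfkp -0.0098, 0.019 and -0.016. The log2 ratio of Hk2 to Hk1 turned to -0.046 under quantile normalization and -0.052 under cyclic loess, and ran from -0.011 to 0.17 with an array left out. With an array left out, the ratios of Pfkp to Pfkl (0.34 to 0.56) and of Gpd1 to Gpd2 (0.24 to 0.42) kept their sign, as they did after both scalings; with so few arrays the exact test could not reach 0.05 there. Where a call was lost, the cause was not tested. Hk2 and Pfkp were both tested in 16 settings rather than 18, since the 2 filters on dim genes removed them.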
